A study of Mus musculus with 11 samples.

Results

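Translation factor genes are described here in villi isolated from the small intestine of mice: the genes whose symbol on the array platform begins with Eif or Eef followed by a digit. The platform named 63 such genes among 19057, and 48 of them had a probe above background (detection p under 0.01) on at least 5 of 11 arrays, among 8234 genes that passed the same filter. Each gene is shown by its brightest such probe, as a background-corrected and quantile-normalized log2 signal. The other 15 genes missed that limit, 11 of them with no array above background, and have no comparison here: Eef1a2, Eef1akmt2, Eef1aknmt, Eif1ax, Eif2ak4, Eif2s3x-ps1, Eif2s3y, Eif3e, Eif3j1, Eif3m, Eif4e1b, Eif4ebp3, Eif4g3, Eif5a2 and Eif5b.

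The arrays held RNA of 5 Villin-Gremlin and 6 wild type samples, all of strain C57Bl/6J and age 5 months. The design text names 6 samples for each genotype, and 5 of Villin-Gremlin are analysed here. In the Villin-Gremlin mice the Villin promoter, which is active in intestinal epithelium, drives Gremlin, a secreted protein that binds bone morphogenetic proteins (BMPs) and blocks their signal. The controls are labelled wild type. No label ties an array to a separate mouse, so the p-values rest on variation among these arrays, and part of that variation may be technical.

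Translation of an mRNA starts when initiation factors (eIFs) bring the initiator tRNA, the small ribosomal subunit and the capped mRNA together. The factor eIF2 carries the initiator tRNA and is recharged with GTP by eIF2B, eIF3 is the large scaffold on the small subunit, and the eIF4 factors bind the cap and unwind the mRNA. Elongation factors (eEFs) then deliver each aminoacyl-tRNA to the ribosome (eEF1) and move the ribosome along (eEF2). In the intestine, dividing crypt cells carry a high load of protein synthesis, and villus cells are their non-dividing descendants.

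Each array had 13536 to 14808 of its 45281 probes above background. The signal of Grem1, which encodes Gremlin, was 13.77 to 14.08 on the Villin-Gremlin arrays and 4.98 to 8.99 on the wild type arrays. Of the 8 enterocyte markers listed, 6 were measured, of which Krt20 and Vil1 fell by 0.47 and 0.34 on the log2 scale. Sis, Alpi, Apoa4 and Apoa1 differed by -0.33, 0.34, -0.13 and -0.060 and did not pass. The probes of Fabp1 and Fabp2 were above background on 0 arrays. On the second principal component, Villin-Gremlin 5 and wild type 1 stood away from the others (-27.83 and -27.85). Villin-Gremlin 1 and wild type 3 read low for Xist (4.53 and 4.65, against 9.36 to 11.56 elsewhere) and high for the Y-linked gene Kdm5d (7.85 and 8.30). This is the pattern of male samples, so neither group comes from a single animal. Markers of T cells and of dividing cells moved with genotype. Of the measured T cell markers 6 of 7 fell (list mean 8.05 to 8.97 on Villin-Gremlin arrays, 9.99 to 10.82 on wild type arrays). Cd2, Cd8a and Gzmb were above background on 0 arrays. Of the measured genes of dividing cells 6 of 6 rose (7.69 to 8.46 on Villin-Gremlin arrays, 6.51 to 7.22 on wild type arrays). Ccnb2 was above background on 0 arrays. Of the measured macrophage and dendritic cell markers 2 of 3 fell, and the single measured B cell marker, Cd79b, was above background on 1 Villin-Gremlin and 5 wild type arrays. The 3 measured fibroblast and muscle markers, Dcn, Acta2 and Des, were lower on average, and 0 passed. Their list mean varied widely within each group, 5.23 to 7.94 on Villin-Gremlin arrays and 6.70 to 10.51 on wild type arrays. It was highest on wild type 1 and lowest on Villin-Gremlin 4. The part of these cells in the results below was not tested. In such mixed tissue, fewer cells of a type and less RNA per cell cannot be told apart.

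Translation factor genes were mostly higher in Villin-Gremlin villi. Of the 48 measured genes, 26 rose and 1, Eif2ak1, fell at an adjusted p under 0.05 (limma, Benjamini-Hochberg over all 8234 genes), and 21 did not pass. Over all genes 33.9% changed, 17.9% higher and 16.0% lower. The groups did not overlap, with every Villin-Gremlin array above every wild type array, for 13 of the 48 genes, against 10.9% of all genes, and the opposite order occurred for 0 of 48, against 9.58% of all genes. The median log2 fold change (Villin-Gremlin minus wild type) of the 48 genes was 0.40, while that of all genes was -0.00015. Without Villin-Gremlin 5 and wild type 1, 20 genes rose and 1 fell, and without Villin-Gremlin 1 and wild type 3 (an alternative added after the values were seen) 19 rose and 2 fell. The changes were modest in size, from -0.54 for Eif2ak1 to 1.01 for Eef1b2. With arrays scaled by their medians in place of quantile normalization, 13 of the 48 genes rose and 1 fell, against 11.2% higher and 14.8% lower of all genes. That scaling moved the median of all genes to -0.093 and that of the factor genes to 0.29.

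**Figure D1:**
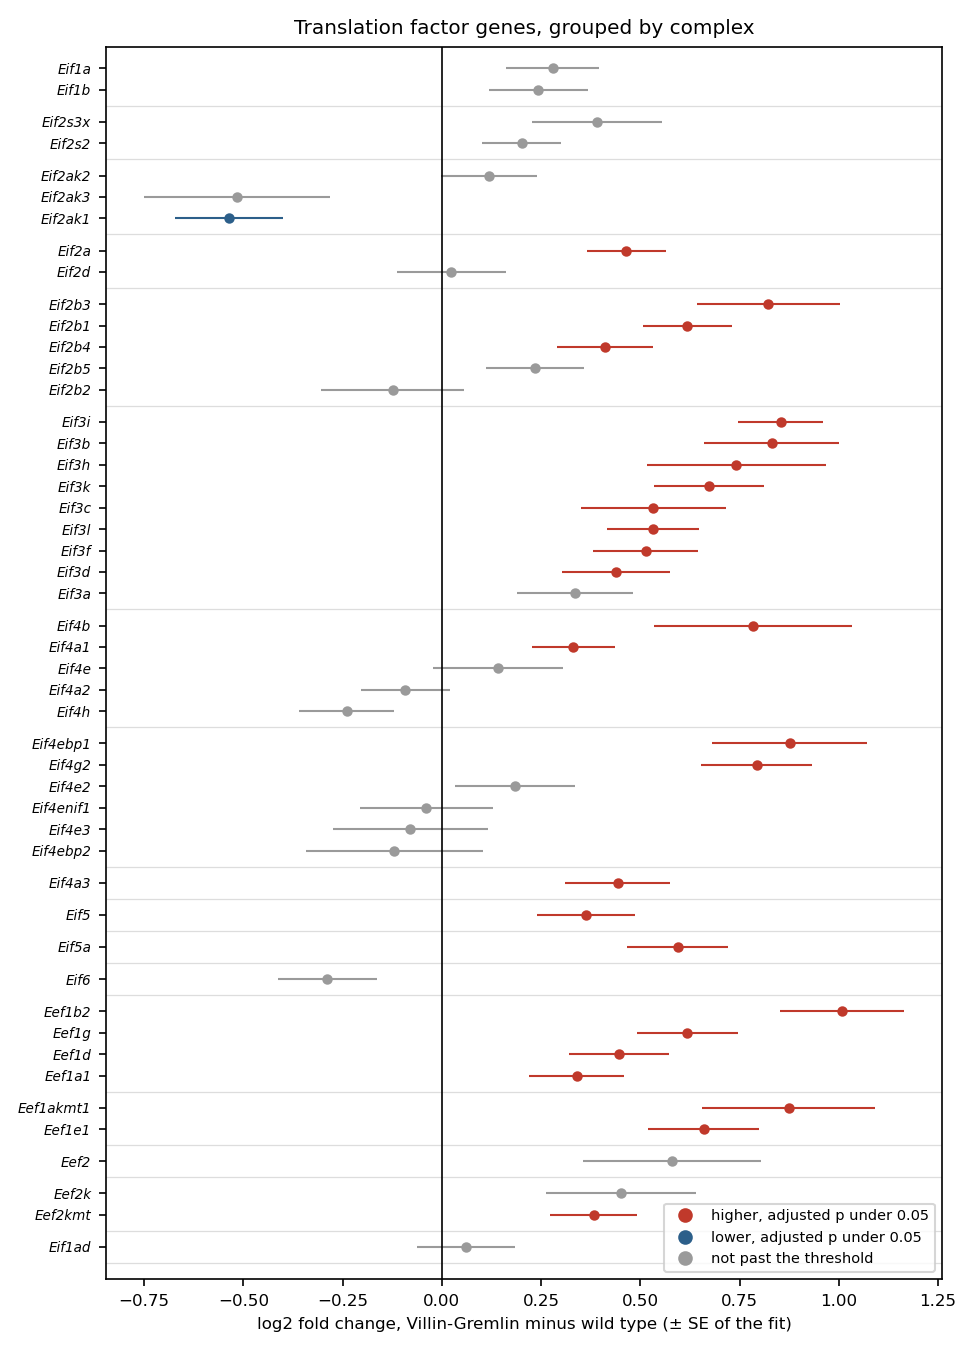
Log2 fold change, Villin-Gremlin minus wild type, for each of the 48 measured translation factor genes, in blocks by complex, with bars for the standard error of the fit. Red points mark the 26 genes that rose, the blue point Eif2ak1, and grey points the 21 genes that did not pass; all measured eEF1 and eIF3 genes lie right of 0.

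The genes of elongation factor eEF1 were higher in Villin-Gremlin villi. This factor consists of eEF1A, the GTPase that carries aminoacyl-tRNA, and of the eEF1B subunits, which exchange its GDP for GTP. All 4 measured genes (Eef1b2, Eef1g, Eef1d and Eef1a1) passed the test, with a median log2 fold change of 0.53, and the groups did not overlap for 3 of them. With median scaling Eef1b2 and Eef1g kept their call, while Eef1d (0.31, adjusted p = 0.211) and Eef1a1 (0.29, adjusted p = 0.201) did not. Eef1b2, an exchange subunit, had the largest fold change of the 48 genes. It read 12.31, 12.60, 12.76, 12.60 and 12.86 on the Villin-Gremlin arrays, and 11.26 to 12.03 with a median of 11.62 on the wild type arrays. Every Villin-Gremlin value lay above every wild type value, a 2.01-fold difference (log2 fold change 1.01 ± 0.16 SE, adjusted p = 3.65e-04). All 3 probes of Eef1b2 rose. Eef1g, the gamma subunit, read 13.34, 13.50, 13.59, 13.01 and 13.52 on the Villin-Gremlin arrays, and 12.65 to 12.99 with a median of 12.73 on the wild type arrays. Its groups were also apart, with Villin-Gremlin 4 just above wild type 6 (1.54-fold, log2 fold change 0.62 ± 0.13 SE, adjusted p = 0.00238). Eef1d, the delta subunit, rose by 0.45 ± 0.13 (log2, SE; adjusted p = 0.0151).

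Eef1a1, whose probe is among the brightest on the arrays (raw signal 22830 to 37420), read 14.97, 15.05, 14.91, 15.07 and 15.01 in Villin-Gremlin villi, and 14.30 to 14.94 with a median of 14.71 in wild type villi. The groups overlapped only at wild type 6 and Villin-Gremlin 3, and the fold was small (1.27-fold, log2 fold change 0.34 ± 0.12 SE, adjusted p = 0.0427). The call was lost when any of Villin-Gremlin 1 to 5 or wild type 1 to 5 was left out (adjusted p 0.0537 to 0.0868), and it was kept without wild type 6. The mean of its 3 probes gave 0.53 (adjusted p = 0.0184). Its paralog Eef1a2, known from muscle and nerve, was above background on 0 arrays.

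The 2 measured genes linked to eEF1 rose as well. Eef1e1 encodes a scaffold protein of the multi-tRNA-synthetase complex and read 8.88, 8.42, 8.99, 8.78 and 8.96 on the Villin-Gremlin arrays, against 7.97 to 8.51 with a median of 8.05 on the wild type arrays. One overlap, Villin-Gremlin 2 below wild type 6, remained in a 1.58-fold difference (log2 fold change 0.66 ± 0.14 SE, adjusted p = 0.00298). Eef1akmt1, a lysine methyltransferase of eEF1A, read 7.86, 7.11, 8.16, 7.48 and 7.03 in Villin-Gremlin villi, against 6.26 to 7.18 with a median of 6.66 in wild type villi. Wild type 6 lay above Villin-Gremlin 2 and 5. Eef1akmt1 rose by 0.87 ± 0.22 (log2, SE; adjusted p = 0.00777), and by 0.41 without background correction.

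Eef2, the GTPase that moves the ribosome by a codon, did not pass: it read 10.89, 11.27, 10.83, 10.91 and 11.57 on the Villin-Gremlin arrays, and 9.81 to 11.11 with a median of 10.58 on the wild type arrays. The difference was 0.58 ± 0.22 (log2, SE; adjusted p = 0.0619), with wild type 4 and 6 inside the Villin-Gremlin range. Without wild type 4 the difference was 0.70 (adjusted p = 0.0278) and without wild type 6 it was 0.65 (adjusted p = 0.0497). On all arrays it passed without background correction (0.53, adjusted p = 0.0489), with the mean of its probes (0.63, adjusted p = 0.0491) and with a trended, robust variance prior (0.58, adjusted p = 0.0472). The eEF2 methyltransferase gene Eef2kmt rose in non-overlapping groups, at 7.29, 7.32, 7.06, 7.01 and 7.41 in Villin-Gremlin villi against 6.69 to 6.91 with a median of 6.86 in wild type villi (0.38 ± 0.11, adjusted p = 0.0165). That probe was dim, and without background correction its difference was 0.17 (adjusted p = 0.0677). The call was also lost with median scaling (adjusted p = 0.153) and with the trended, robust prior (0.0593). The kinase gene Eef2k, whose product inhibits eEF2, differed by 0.45 ± 0.19 (adjusted p = 0.0852).

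Of the scaffold eIF3, 8 of 9 measured subunit genes rose, and the median log2 fold change was 0.53, from 0.34 to 0.85. With median scaling 4 of these 8 kept their call (Eif3i, Eif3b, Eif3k and Eif3h), while Eif3l (adjusted p = 0.0836), Eif3f (0.0809), Eif3d (0.255) and Eif3c (0.127) did not. The groups did not overlap for Eif3i, Eif3k and Eif3l. Eif3i, a propeller-shaped subunit, had the smallest p of the 48 genes. It read 13.11, 13.19, 13.38, 13.09 and 13.16 on the Villin-Gremlin arrays, and 12.15 to 12.49 with a median of 12.35 on the wild type arrays. The gap between the groups exceeded the spread within either, a 1.81-fold difference (log2 fold change 0.85 ± 0.11 SE, adjusted p = 8.34e-05), and its 3 probes rose by 0.84 to 1.12. Eif3b, which belongs to the conserved core of the complex and binds Eif3i, read 9.15, 8.80, 9.54, 9.19 and 9.72 on the Villin-Gremlin arrays, against 8.25 to 8.81 with a median of 8.37 on the wild type arrays. Wild type 6 lay just above Villin-Gremlin 2, and the rise was 0.83 ± 0.17 (log2, SE; adjusted p = 0.00237).

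Eif3k, Eif3l, Eif3f and Eif3h, subunits that budding yeast lacks, had log2 fold changes of 0.67, 0.53, 0.51 and 0.74. The mRNA-contacting subunit gene Eif3d rose by 0.44 and the core subunit gene Eif3c by 0.53, while Eif3a, the largest core subunit, differed by 0.34 ± 0.15 (adjusted p = 0.0974). Eif3h was near background, with 4 of 6 wild type arrays detecting it, and rose by 0.28 without background correction. The mean of both Eif3k probes gave 0.43 (adjusted p = 0.0721). The calls of 3 genes were lost in some fits with 1 array left out. Eif3h did not pass without Villin-Gremlin 5 (adjusted p = 0.0506). Eif3d did not pass when any of Villin-Gremlin 1, 2 or 3 or wild type 2 was left out (0.057 to 0.0639). Eif3c did not pass when any of Villin-Gremlin 1, 2 or 5 or wild type 1, 2, 4 or 5 was left out (0.0557 to 0.0927).

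**Figure D2:**
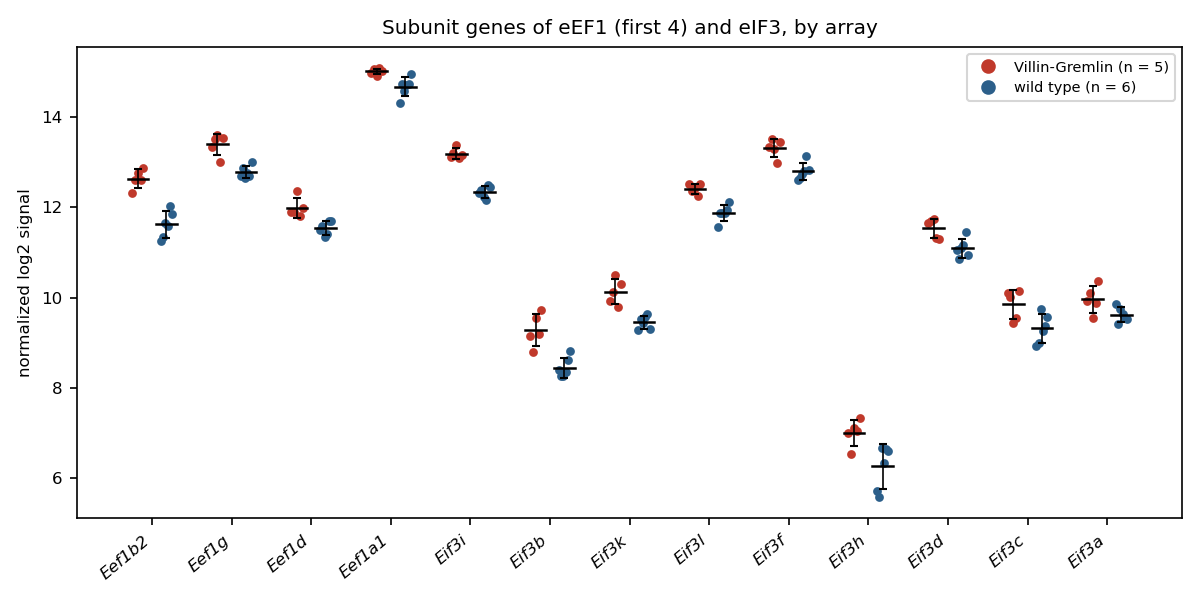
Normalized log2 signal of the 4 measured eEF1 and 9 measured eIF3 subunit genes on each array, Villin-Gremlin (red, n = 5) left of wild type (blue, n = 6), with lines for the mean and bars for the SD. Eef1b2 and Eif3i show gaps between the groups, while Eif3c, Eif3d and Eif3a overlap; heights of different genes come from different probes and are not comparable.

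Many genes of this class make mRNAs that begin with a run of pyrimidines, through which the mTORC1 kinase is known to control their translation, and CACGTG is the E-box bound by Myc and related factors. The sequences below show the start regions of some changed eEF1 and eIF3 genes beside Eef2 and Eif2s3x, which did not pass. They run from 75 bases before to 25 bases after the RefSeq start (build GRCm38.p6), 5′ to 3′. Capitals mark CACGTG and any unbroken run of at least 8 C or T that touches the window from 10 bases before to 15 bases after the start. All genes shown except Eef1b2 hold such a run. The changed eIF3 genes Eif3b, Eif3c and Eif3d hold neither feature and are not shown.
Eef1a1, chr9:78481700-78481799, minus strand: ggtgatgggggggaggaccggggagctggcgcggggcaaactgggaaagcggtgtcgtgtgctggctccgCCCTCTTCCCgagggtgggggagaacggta
Eef1b2, chr1:63176756-63176855, plus strand: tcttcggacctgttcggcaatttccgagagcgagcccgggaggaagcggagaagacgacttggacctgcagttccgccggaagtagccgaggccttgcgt
Eif3f, chr7:108934340-108934439, plus strand: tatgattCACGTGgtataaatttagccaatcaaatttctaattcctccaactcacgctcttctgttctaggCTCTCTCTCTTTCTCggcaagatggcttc
Eif3l, chr15:79075148-79075247, plus strand: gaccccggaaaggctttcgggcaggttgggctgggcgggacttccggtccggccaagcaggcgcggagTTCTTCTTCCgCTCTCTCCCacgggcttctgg
Eif3k, chr7:28981864-28981963, minus strand: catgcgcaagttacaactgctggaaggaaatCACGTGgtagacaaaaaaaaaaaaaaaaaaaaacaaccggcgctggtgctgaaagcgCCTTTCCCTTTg
Eef2, chr10:81176556-81176655, plus strand: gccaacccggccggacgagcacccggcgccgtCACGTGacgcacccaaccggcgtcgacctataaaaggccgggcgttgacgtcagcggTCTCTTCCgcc
Eif2s3x, chrX:94212627-94212726, minus strand: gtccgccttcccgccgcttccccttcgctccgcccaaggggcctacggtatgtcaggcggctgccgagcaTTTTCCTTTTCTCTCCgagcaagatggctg

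Of the 48 measured factor genes, 37 had a start region in the RefSeq table, and 10 of these held such a pyrimidine run (27.0%), against 18.7% of 6760 measured genes of the array with an entry. The window admits runs away from the first base of the mRNA, as in Eif3k and Eef2 (first bases 14 and 15 after the start). These shares are therefore not shares of mRNAs that begin with the run. CACGTG, which reads the same on both strands, lay within 250 bases before to 50 bases after the start in 10 of the 37 (27.0%), against 12.3% of the 6760. Each feature was present in 4 of 18 genes that rose and in 6 of 18 that did not pass. Eef1b2, with the largest fold, held neither.

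Within eIF2B, the exchange factor that recharges eIF2, 3 of 5 subunit genes rose and 0 fell, with a median log2 fold change of 0.41. Eif2b1, the alpha subunit of the regulatory part, read 8.89, 8.72, 9.07, 8.71 and 8.95 on the Villin-Gremlin arrays, and 8.09 to 8.39 with a median of 8.27 on the wild type arrays. These groups did not overlap (1.54-fold, log2 fold change 0.62 ± 0.11 SE, adjusted p = 0.00109). Eif2b3, the gamma subunit of the catalytic part, read 6.95, 6.75, 7.22, 6.52 and 6.92 in Villin-Gremlin villi, and 5.37 to 6.38 with a median of 6.14 in wild type villi. It did not overlap either (0.82 ± 0.18, adjusted p = 0.00362), but 4 of 6 wild type arrays detected it, and it rose by 0.29 without background correction. Eif2b4, the delta subunit, rose by 0.41 ± 0.12 (adjusted p = 0.0180), a call lost with median scaling (0.28, adjusted p = 0.296) and without Villin-Gremlin 1 and wild type 3 (adjusted p = 0.0595). The catalytic epsilon subunit gene Eif2b5 differed by 0.23 ± 0.12 (adjusted p = 0.165) and the beta subunit gene Eif2b2 by -0.12 ± 0.18 (adjusted p = 0.635).

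The eIF2 genes themselves did not pass. Of 3 named on the platform, 2 were measured, with a median log2 fold change of 0.30. Eif2s3x, the X-linked gamma subunit gene, read 10.78, 11.27, 11.22, 11.30 and 11.38 on the Villin-Gremlin arrays, and 10.24 to 11.15 with a median of 10.88 on the wild type arrays (0.39 ± 0.16, adjusted p = 0.0846). Its lowest array in each group, Villin-Gremlin 1 and wild type 3, was the array with low Xist. On these same arrays the brighter probe of Eif2s3y, the Y-linked copy, read 11.09 and 11.06, and on the other 9 arrays it read 4.60 to 4.80 and was not above background. Without Villin-Gremlin 1 and wild type 3, a choice made after the values were seen, Eif2s3x differed by 0.38 and passed (adjusted p = 0.0442), as it did without Villin-Gremlin 1 alone (0.49, adjusted p = 0.0374) and without wild type 6 (0.46, adjusted p = 0.048). Eif2s2, the beta subunit gene, differed by 0.20 ± 0.10 (adjusted p = 0.138).

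Kinases that phosphorylate eIF2, and so slow initiation under stress, included the 1 factor gene that fell. Eif2ak1, the heme-regulated inhibitor HRI, read 10.98, 11.14, 10.79, 11.18 and 10.97 on the Villin-Gremlin arrays, and 11.07 to 11.74 with a median of 11.63 on the wild type arrays. Only wild type 1 lay within the Villin-Gremlin range, and the difference was -0.54 ± 0.14 (log2, SE; adjusted p = 0.00877), 1.45-fold lower, with -0.63 when wild type 1 was left out. Eif2ak3, the endoplasmic reticulum kinase PERK, differed by -0.52 ± 0.23 (adjusted p = 0.109) near background. It passed without Villin-Gremlin 1 (-0.67, adjusted p = 0.0442). Eif2ak2, the double-stranded RNA kinase PKR, differed by 0.12 ± 0.12 (adjusted p = 0.480), and Eif2ak4, the amino acid sensor GCN2, was above background on 0 arrays.

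Genes of the integrated stress response, in which phosphorylated eIF2 acts through the transcription factor ATF4, changed both ways. The list was not limited to genes that ATF4 induces, and it holds Atf4 itself. Of 14 measured genes of this integrated stress response, out of 16 listed, 4 rose and 5 fell, with a median log2 fold change of -0.00069. These shares were 28.6% and 35.7%, against 17.9% and 16.0% of all genes. One of the 5, Chac1, passed the detection filter only through the wild type arrays (above background on 0 of 5 Villin-Gremlin and 5 of 6 wild type arrays), so it had to differ and its fall supports nothing. Trib3, a pseudokinase induced by ATF4, read 8.58, 8.53, 8.30, 8.81 and 7.86 on the Villin-Gremlin arrays, and 9.70 to 10.45 with a median of 10.01 on the wild type arrays. It was 3.13-fold lower in non-overlapping groups (-1.65 ± 0.20, adjusted p = 5.79e-05). Ddit4, an inhibitor of mTORC1 that stress and hypoxia induce, was 4.15-fold higher (2.05 ± 0.27, adjusted p = 1.31e-04), and Asns, asparagine synthetase, 1.70-fold higher (0.76 ± 0.14, adjusted p = 0.00142). Both were also apart between the groups. Psat1 and Atf5 rose by 0.90 and 0.65 on the log2 scale, Ddit3, Atf3 and Ppp1r15b had log2 fold changes of -0.94, -1.25 and -0.52. Atf4 itself, named here after its values were seen, differed by 0.079 ± 0.16 (adjusted p = 0.747).

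**Figure D3:**
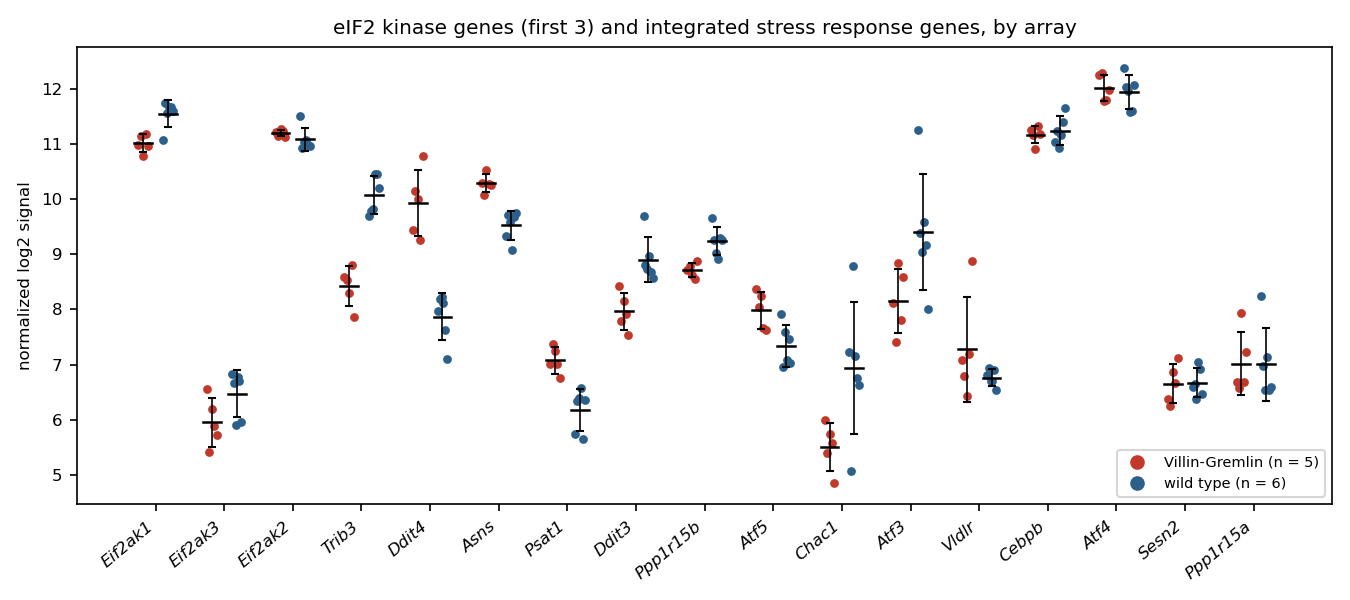
Normalized log2 signal on each array for the 3 measured eIF2 kinase genes and the 14 measured genes of the integrated stress response, Villin-Gremlin (red, n = 5) left of wild type (blue, n = 6), with lines for the mean and bars for the SD. Eif2ak1 and Trib3 lie lower and Ddit4 and Asns higher in Villin-Gremlin villi, while the Atf4 groups overlap.

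The alternative initiator tRNA carriers are Eif2a and Eif2d. Eif2a, which can deliver initiator tRNA without GTP, read 11.39, 11.52, 11.37, 11.40 and 11.29 on the Villin-Gremlin arrays, and 10.83 to 11.06 with a median of 10.90 on the wild type arrays. Its groups did not overlap (1.38-fold, log2 fold change 0.46 ± 0.10 SE, adjusted p = 0.00326), but the call was lost with median scaling (0.32, adjusted p = 0.204). Eif2d, which acts in reinitiation and recycling, differed by 0.024 ± 0.14 (adjusted p = 0.913).

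Genes of the cap-binding and unwinding eIF4 factors were mixed, against 17.9% higher and 16.0% lower of all genes. Of 5 measured genes 2 were higher and 0 lower, with a median log2 fold change of 0.14. Neither call was kept with median scaling (Eif4a1 0.21, adjusted p = 0.407; Eif4b 0.71, adjusted p = 0.0667). That median was 0.038 without wild type 4, 0.082 without wild type 5, 0.083 without Villin-Gremlin 4, 0.22 without wild type 2 and 0.044 without background correction. Eif4a1, the main RNA helicase of the group, read 13.37, 13.32, 13.13, 13.03 and 13.10 on the Villin-Gremlin arrays, and 12.73 to 12.93 with a median of 12.87 on the wild type arrays. The groups were apart by a small margin (1.26-fold, log2 fold change 0.33 ± 0.10 SE, adjusted p = 0.0262). Eif4b, which stimulates the helicase, read 8.59, 8.41, 7.60, 8.77 and 8.37 in Villin-Gremlin villi, and 6.72 to 8.11 with a median of 7.60 in wild type villi. Villin-Gremlin 3 lay within the wild type range. Eif4b rose by 0.78 ± 0.25 (adjusted p = 0.0278), and by 0.47 without background correction. Its other probe, of similar brightness, rose by 0.45 and did not pass (limma, adjusted p = 0.159 over all kept probes). The cap-binding protein gene Eif4e differed by 0.14 ± 0.16 (adjusted p = 0.540) and the helicase cofactor gene Eif4h by -0.24 ± 0.12 (adjusted p = 0.140). The Eif4a1 call was lost without Villin-Gremlin 1 or 2 or wild type 3 (adjusted p 0.056 to 0.0712), and the Eif4b call without Villin-Gremlin 1, 2 or 4 or wild type 5 (0.0501 to 0.0715).

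The helicase paralog Eif4a2 did not pass. Eif4a2 read 13.95, 14.13, 13.94, 14.18 and 13.72 on the Villin-Gremlin arrays, and 14.00 to 14.24 with a median of 14.04 on the wild type arrays, a difference of -0.09 ± 0.11 (adjusted p = 0.564). Within arrays, Eif4a1 minus Eif4a2 averaged -0.79 ± 0.23 in Villin-Gremlin villi and -1.22 ± 0.16 in wild type villi (log2, SD, n = 5 and 6), a shift of 0.42 (exact permutation p = 0.00649, two-sided over 462 splits, 0.00866 adjusted over 2 pairs). The pair was picked after its values were seen, so this p-value is no support for a shift. The ranges of that difference overlapped at Villin-Gremlin 4 and wild type 1 and 6. With the mean of each gene's probes the shift was 0.35 and did not pass (exact permutation p = 0.145), and Eif4a2 alone then differed by 0.059.

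Genes of eIF4E inhibitors and relatives rose in 2 of 6 measured cases, against 17.9% of all genes. Eif4g2, also called DAP5, which supports initiation without eIF4E, read 11.20, 11.30, 10.9999, 11.42 and 11.63 on the Villin-Gremlin arrays, and 10.34 to 10.85 with a median of 10.43 on the wild type arrays. The groups did not overlap (1.73-fold, log2 fold change 0.79 ± 0.14 SE, adjusted p = 8.82e-04), though its dimmer probes rose by 0.36 and 0.44 and did not pass. Eif4ebp1, an eIF4E-binding repressor that mTORC1 switches off, read 10.02, 9.66, 10.11, 9.41 and 10.38 in Villin-Gremlin villi, and 8.65 to 9.49 with a median of 9.04 in wild type villi. Wild type 1 lay just above Villin-Gremlin 4 in an otherwise higher group (1.84-fold, log2 fold change 0.88 ± 0.19 SE, adjusted p = 0.00397).

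Its paralog Eif4ebp2 read 9.90, 9.79, 10.76, 10.39 and 10.99 on the Villin-Gremlin arrays, and 10.18 to 10.90 with a median of 10.49 on the wild type arrays (-0.12 ± 0.22, adjusted p = 0.715). Within arrays, Eif4ebp1 minus Eif4ebp2 shifted by 0.996, with -0.45 ± 0.44 in Villin-Gremlin villi and -1.45 ± 0.44 in wild type villi (SD, n = 5 and 6; exact permutation p = 0.00866, two-sided, also 0.00866 adjusted over 2 pairs). Wild type 1 lay above Villin-Gremlin 4. This pair of genes and the helicase pair were tested after the values were seen, so neither p-value is support for a shift. Eif4e2, Eif4e3 and Eif4enif1, which encode cap-binding relatives and the eIF4E transporter, differed by 0.18, -0.079 and -0.039 and did not pass. The exon junction helicase gene Eif4a3, a relative of Eif4a1 by sequence that acts on spliced mRNA, read 10.27, 10.10, 10.43, 9.97 and 10.29 in Villin-Gremlin villi, and 9.45 to 10.08 with a median of 9.77 in wild type villi. Wild type 5 lay above Villin-Gremlin 4. Eif4a3 rose by 0.44 ± 0.13 (adjusted p = 0.0198), a call lost without Villin-Gremlin 3 (adjusted p = 0.0521) and with median scaling (adjusted p = 0.164).

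Eif5 and Eif5a were measured and both rose, while Eif5b and Eif5a2 missed the detection limit. Eif5, which triggers GTP hydrolysis on eIF2, read 13.08, 13.33, 12.82, 12.92 and 13.34 on the Villin-Gremlin arrays, and 12.63 to 12.86 with a median of 12.73 on the wild type arrays. Wild type 1 and 3 lay above Villin-Gremlin 3. Eif5 rose 1.29-fold (0.36 ± 0.12, adjusted p = 0.0377), a call lost without Villin-Gremlin 1, 2 or 5 or wild type 2, 4, 5 or 6 (adjusted p 0.057 to 0.0938) and with median scaling (adjusted p = 0.29). Eif5a, whose product carries the modified lysine hypusine and helps the ribosome past stalling sequences, read 11.19, 11.15, 11.47, 11.29 and 11.52 in Villin-Gremlin villi, and 10.53 to 11.06 with a median of 10.65 in wild type villi. These groups did not overlap (1.51-fold, log2 fold change 0.59 ± 0.13 SE, adjusted p = 0.00307), and its 3 probes rose by 0.56 to 0.59.

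Eif1a and Eif1b, grouped here by symbol only, both missed the threshold. Eif1a read 11.20, 11.03, 11.31, 11.04 and 10.94 on the Villin-Gremlin arrays, and 10.66 to 11.06 with a median of 10.78 on the wild type arrays (0.28 ± 0.12, adjusted p = 0.0829). It passed without background correction (0.26, adjusted p = 0.0471) and with array weights (0.31, adjusted p = 0.0374). Eif1b, a paralog of the start codon factor eIF1, read 10.12, 10.22, 9.90, 10.09 and 10.10 in Villin-Gremlin villi, and 9.53 to 10.09 with a median of 9.86 in wild type villi (0.24 ± 0.13, adjusted p = 0.154). Eif6, which keeps the large ribosomal subunit from joining too early, read 13.41, 13.16, 13.31, 12.97 and 12.96 in Villin-Gremlin villi, and 13.26 to 13.64 with a median of 13.47 in wild type villi. That difference of -0.29 ± 0.12 did not pass either (adjusted p = 0.0923), and Eif1ad, named for a domain like that of eIF1A, differed by 0.060 ± 0.12 (adjusted p = 0.742).

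Set side by side, the complexes had median log2 fold changes of 0.53 (eEF1, 4 genes), 0.53 (eIF3, 9 genes), 0.41 (eIF2B, 5 genes), 0.30 (eIF2, 2 genes) and 0.14 (eIF4, 5 genes), against -0.00015 over all 8234 genes. The mean over eEF1 genes was 13.25 ± 0.13 on Villin-Gremlin arrays and 12.65 ± 0.16 on wild type arrays (log2, SD, n = 5 and 6). For eIF3 it was 10.74 ± 0.13 on Villin-Gremlin arrays and 10.13 ± 0.15 on wild type arrays. The eIF2B mean was 9.29 ± 0.19 in Villin-Gremlin villi and 8.89 ± 0.17 in wild type villi. The ranges of the array means did not overlap for eEF1, eIF3 and eIF2B, and they overlapped for eIF2 (10.51 to 10.76 on Villin-Gremlin, 10.07 to 10.53 on wild type arrays) and eIF4 (10.95 to 11.27 on Villin-Gremlin, 10.81 to 11.12 on wild type arrays). With median scaling the eIF2 median was 0.16. These are descriptions of chosen lists, and the differences between complexes were not tested.

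**Figure D4:**
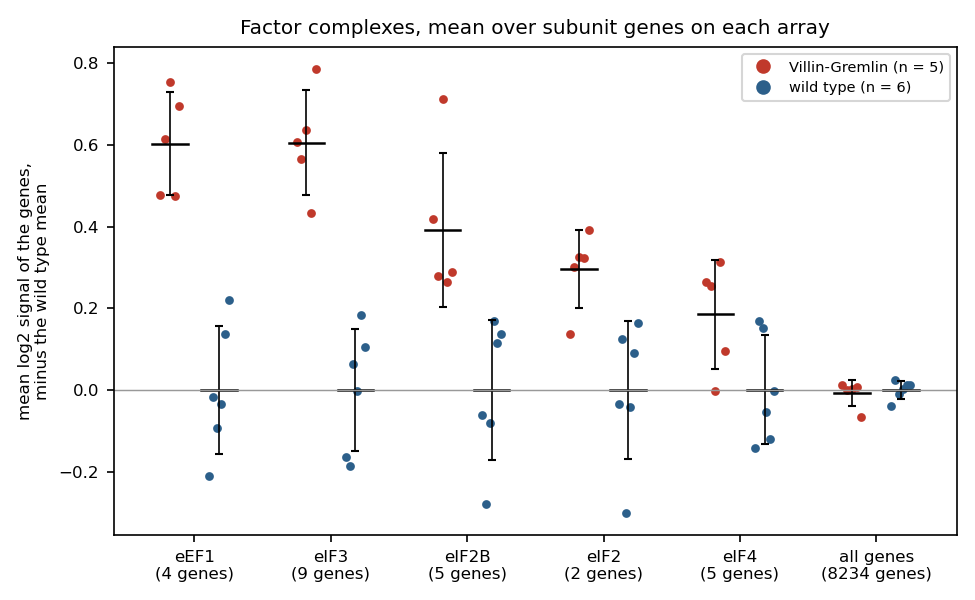
Mean log2 signal over the measured subunit genes of each complex on each array, after subtracting the wild type mean, Villin-Gremlin (red, n = 5) left of wild type (blue, n = 6), with lines for the group mean and bars for the SD. The groups are separate for eEF1, eIF3 and eIF2B, overlap for eIF2 and eIF4, and lie near 0 for all genes.

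Other genes of the translation apparatus, from lists chosen with earlier results known, were read for comparison. Over all 8234 genes 17.9% rose and 16.0% fell. Aminoacyl-tRNA synthetases and their scaffold genes rose in 11 of 17 measured members out of 23 listed, with 0 lower and a median log2 fold change of 0.59. The phenylalanine enzyme subunit gene Farsb was 2.48-fold higher (1.31 ± 0.15, adjusted p = 3.44e-05), the arginine enzyme gene Rars 1.58-fold and the isoleucine enzyme gene Iars 2.12-fold higher. Of 10 measured genes for poly(A) binding and ribosome scanning (13 listed) 5 rose and 0 fell, led by the ribosome recycling gene Abce1 at 1.97-fold, with Paip2b and Pabpc1 at 1.62 and 1.36-fold. Among 13 measured genes of termination and elongation quality (17 listed) 4 rose and 0 fell, among them Dph2, of the diphthamide modification of eEF2, at 1.63-fold, the release factor gene Etf1 and Dph1.

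The mitochondrial translation factor list had 3 of 8 measured members higher (9 listed), Tsfm, Tufm and Mtif3, and 0 lower. The share that rose was 37.5%, against 17.9% of all genes. In the mTORC1 and S6 kinase pathway, which controls many of these factors, 4 of 16 measured genes rose and 1 fell (23 listed), with a median of 0.030. These shares were 25% and 6.25%, against 17.9% and 16.0% of all genes. Deptor, an inhibitor that binds mTOR, was 2.15-fold higher (1.10 ± 0.16, adjusted p = 2.29e-04), and Lamtor4 and Pdcd4, a lysosomal activator subunit and an inhibitor of eIF4A, had log2 fold changes of 0.46 and 0.55. Lamtor1 was the fourth gene that rose, and the gene that fell was Mknk1 (-0.53), a kinase of eIF4E. The probe of Myc was above background on 0 arrays.

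**Figure D5:**
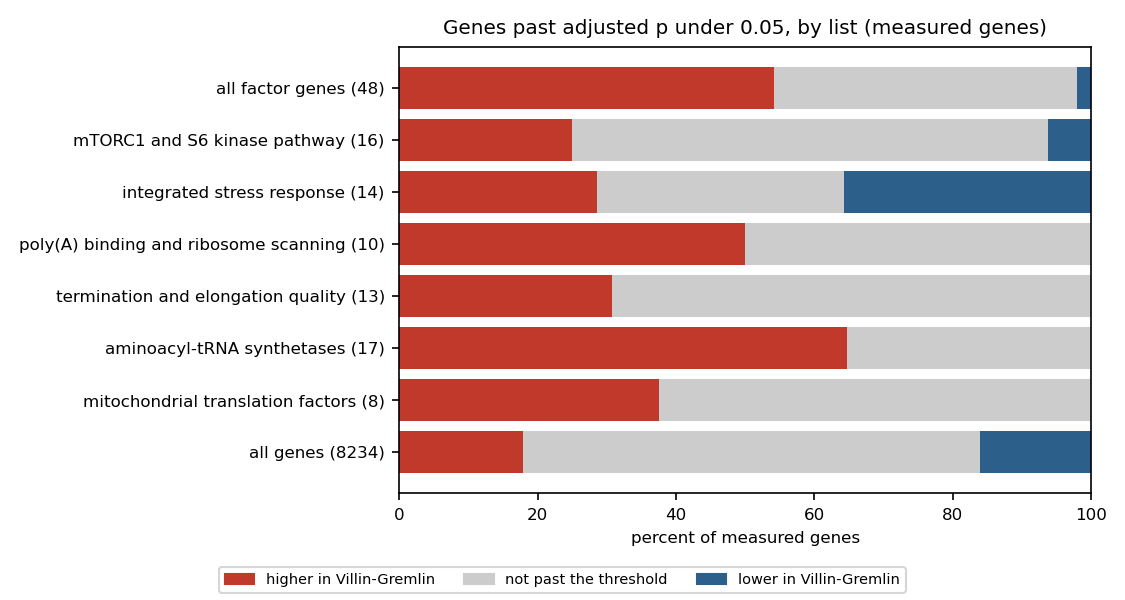
Percent of measured genes that were higher (red), did not pass (grey) or were lower (blue) in Villin-Gremlin villi, for the 48 translation factor genes, 6 other lists of the translation apparatus and its control, and all 8234 genes; the number of measured genes follows each name. All lists shown have larger red shares than all genes (17.9%), the largest for aminoacyl-tRNA synthetases and then for factor genes. The integrated stress response has the largest blue share of the lists.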

How the data were processed

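Biotinylated cRNA of total RNA, purified with a Qiagen kit and DNase per the labels' protocols, was read on Illumina bead arrays. The deposited signal table holds, per the file headers, each probe's average linear intensity and its detection p-value; column medians differ (157 to 207), and it is deposited as not normalized. The authors' deposited log2 values rank the probes of each array as its signals do (Spearman correlation 0.9999986 to 0.9999995); the sources used here do not give their normalization.

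Signals were corrected by the neqc function (limma 3.58.1, R 4.3.3; background from detection p-values, offset 16, log2, quantile normalization). Detection p under 0.01 on at least 5 arrays left 14203 probes. The model, lmFit with eBayes, had genotype as its only term, with Benjamini-Hochberg adjustment. Probes were named by the platform's annotation table: 34885 had 1 symbol, 18 several and 10378 none. Simulated data with 200 changed genes among 8234 gave back 22.4%, 77.6% and 100% of log2 changes of 0.5, 1 and 2, with 4 false calls among 137. In the data 2792 genes passed, far more than in the simulation, so these shares need not hold for the comparison reported here.

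Members and lists were chosen with earlier results of these data known. All genes past the threshold are named; values per array are given for up to 2 such genes of each complex, the best gene of complexes with none, and paralogs; other lists name up to 3, with further genes that complete a small count named after their values were seen. Alternatives were other background corrections, scalings, filters, probe rules, weights and variance priors, a replicate block, and arrays left out. The number of arrays limits the precision.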

Additional observations from a re-analysis of the deposited data

Results flagged for a closer look

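Of 96 groups checked (48 genes in both genotypes), 6 held an array whose gap to its nearest neighbour took most of the group's range by Dixon's limit, and chance gives about 1 in 20 groups. Eif2s3x read 10.78 on Villin-Gremlin 1, the lowest of its group, with the nearest array at 11.22; Xist was also low on this array. Wild type 1 was apart for a pair of eIF2 kinases: Eif2ak1 read 11.07 there (nearest 11.55), and Eif2ak2 read 11.50 (nearest 11.07). Wild type 2 was lowest for Eif2b3 at 5.37 (nearest 6.05) and for Eif4e3 at 8.12 (nearest 8.74). Villin-Gremlin 3 was highest for Eif2b5 at 11.12 (nearest 10.84).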

How the results depend on the processing

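All 27 changed factor genes kept their direction in every alternative run that tested them, and 12 of them kept their call in all such runs. Eif2b3, among these 12, and Eif3h were not tested where detection on all arrays was required. The count of factor genes that rose was 13 with median scaling and 16 with a replicate block, which drops wild type 6, and it was 20 to 27 with 1 array left out, 20 without Villin-Gremlin 5 and wild type 1, and 19 without Villin-Gremlin 1 and wild type 3 (added after the data were seen). The count that fell was 2 with no detection filter, where Eif4ebp3 joined Eif2ak1, 1 to 2 with 1 array left out, and 2 without Villin-Gremlin 1 and wild type 3, where Eif2ak3 joined. Among genes that did not pass, Eif4a2 turned to 0.059 with the mean of probes. Eif4ebp2 ranged from -0.28 to 0.025 with 1 array left out, positive when that was Villin-Gremlin 2, and was 0.011 when arrays Villin-Gremlin 1 and wild type 3 were both dropped. The replicate numbers are those of the sample titles and share no labelled animal. Array names in the signal headers number the Villin-Gremlin arrays differently, and pairing by those names was not tested. Deviations of same-numbered arrays correlated at -0.198 to 0.111, and 1 of 5 arrays correlated best with its own number. Under the replicate block, set by title number, Eif2b4, Eif3c, Eif3d, Eif4a1, Eif4a3, Eif4b, Eif5, Eef1a1, Eef1d and Eef2kmt did not pass. Median scaling ended the calls of 13 genes that rose. Of 14 changed genes with several kept probes, all probes had the same sign in 14, and every probe passed in 7 (adjusted over 14203 kept probes). Over all alternatives the median log2 fold change ranged from 0.42 to 0.60 for eEF1, 0.42 to 0.62 for eIF3, 0.28 to 0.51 for eIF2B, 0.16 to 0.34 for eIF2 and 0.038 to 0.23 for eIF4. Without background correction the log2 differences of the dim probes of Eif2b3, Eif3h, Eif4b, Eef1akmt1 and Eef2kmt shrank by more than 1.5 times.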
